A study of Mus musculus with 35 samples.

Results

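L2 and MIR are the oldest repeat families that can still be recognised widely in mammalian genomes, and 2290 of the 177904 open chromatin regions found in mouse hepatocyte nuclei (1.29%) lay on a copy of one of them. The members were taken from the authors' merged region table by its repeat annotation, which placed 920 regions in L2 and 1370 in MIR. The table placed 1353 of them in introns and 937 between genes, and none in a promoter or exon. It also placed every LINE-1, LTR and rodent SINE region in introns or between genes, so this is not particular to L2 and MIR. The set of all regions used for comparison below does include promoters (21692 regions). ATAC-seq, which maps DNA open to a transposase, was run on hepatocyte nuclei pulled down from 35 mice at zeitgeber time 9 h. All mice carried CAG-Sun1/sfGFP, a nuclear envelope tag, and Albumin-Cre, in which the albumin promoter directs Cre to hepatocytes and so switches the tag on there. BALB/c mice received PBS or C26 tumor cells and were taken before or in cachexia (C26 PBS, C26 pre-cachexia and C26 cachexia, 4 mice each). Other BALB/c mice received PBS or NC26 cells, and C57BL/6N mice received PBS or MC38 cells, and these tumors leave body weight stable (4 mice in each of these 4 groups). C57BL/6N mice with 8025 tumors in cachexia (4 mice) were set beside PBS mice of their own cohort (3 mice, replicates 1, 2 and 4). C26 and 8025 mice in cachexia had lost over 10% of body weight. Each library came from its own animal, so the p-values measure the spread between animals. The labels used here give no age.

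L2 is a long interspersed element that once copied itself with its own reverse transcriptase. MIR, the mammalian-wide interspersed repeat, is a short element derived from a transfer RNA gene that carried no enzyme of its own and was copied by the L2 machinery. Both stopped moving long before rodents arose, so a surviving copy is a worn fragment with its own mutations, and copies of both families are known to have been taken up as enhancers in several tissues. In cachexia the liver meets inflammatory cytokines and glucocorticoids, and switches on acute phase genes.

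Sequence was at hand for 18 of the 2290 members, those whose centre lay in a window from 250 bases before to 50 bases after a RefSeq transcript start. The 6 windows below show what such regions are made of: the member with the highest level among the 18 (Cers6), and the members at or above the median level that passed the test in a cachexia comparison and whose nearest gene has an approved name. This choice was made after the values were seen. Sequences are from RefSeq on GRCm38.p6, 5′ to 3′ on the strand of the transcript, and capitals mark matches to the patterns listed after them. Each window is labelled by the nearest gene of its region in the authors' assignment. Only the Slc6a13 window is at a start of the labelled gene. The others are at starts of the predicted genes Gm36231 (Cers6), Gm32063 (Smim13), Gm39851 (Atp5g3), Gm33721 (Arntl) and Gm33923 (Arhgef26).
Cers6 L2a, chr2:68845413-68845712, minus strand: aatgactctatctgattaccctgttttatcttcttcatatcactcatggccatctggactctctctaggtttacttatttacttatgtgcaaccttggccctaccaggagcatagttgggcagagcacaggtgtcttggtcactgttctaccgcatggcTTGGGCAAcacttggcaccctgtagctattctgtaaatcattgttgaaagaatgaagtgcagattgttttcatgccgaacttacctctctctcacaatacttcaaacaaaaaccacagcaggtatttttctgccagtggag
Slc6a13 MIRb, chr6:121300490-121300789, plus strand: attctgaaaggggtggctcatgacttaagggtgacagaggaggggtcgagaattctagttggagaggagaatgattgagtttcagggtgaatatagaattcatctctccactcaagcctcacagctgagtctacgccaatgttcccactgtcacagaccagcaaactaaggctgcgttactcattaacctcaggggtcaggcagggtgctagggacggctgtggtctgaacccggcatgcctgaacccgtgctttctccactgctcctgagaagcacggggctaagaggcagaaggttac
Smim13 MIRb, chr13:41235796-41236095, plus strand: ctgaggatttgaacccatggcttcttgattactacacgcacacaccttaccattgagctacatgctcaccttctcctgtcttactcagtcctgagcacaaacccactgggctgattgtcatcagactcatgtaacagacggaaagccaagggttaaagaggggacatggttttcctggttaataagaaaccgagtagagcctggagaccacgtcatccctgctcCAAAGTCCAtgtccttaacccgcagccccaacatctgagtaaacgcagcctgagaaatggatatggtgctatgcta
Atp5g3 L2c, chr2:73938899-73939198, plus strand: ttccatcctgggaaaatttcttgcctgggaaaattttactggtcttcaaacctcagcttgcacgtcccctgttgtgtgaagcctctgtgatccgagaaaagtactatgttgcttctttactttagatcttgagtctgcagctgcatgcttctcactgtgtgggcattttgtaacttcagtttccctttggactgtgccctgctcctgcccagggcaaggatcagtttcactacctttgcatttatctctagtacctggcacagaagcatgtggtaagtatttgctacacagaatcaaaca
Arntl L2a, chr7:113261685-113261984, minus strand: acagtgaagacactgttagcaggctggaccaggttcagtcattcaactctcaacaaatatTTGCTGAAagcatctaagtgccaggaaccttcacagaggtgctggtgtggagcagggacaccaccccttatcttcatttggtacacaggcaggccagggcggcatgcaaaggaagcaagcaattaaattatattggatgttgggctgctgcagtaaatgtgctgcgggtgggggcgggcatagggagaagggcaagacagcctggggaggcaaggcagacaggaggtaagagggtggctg
Arhgef26 L2a, chr3:62344103-62344402, minus strand: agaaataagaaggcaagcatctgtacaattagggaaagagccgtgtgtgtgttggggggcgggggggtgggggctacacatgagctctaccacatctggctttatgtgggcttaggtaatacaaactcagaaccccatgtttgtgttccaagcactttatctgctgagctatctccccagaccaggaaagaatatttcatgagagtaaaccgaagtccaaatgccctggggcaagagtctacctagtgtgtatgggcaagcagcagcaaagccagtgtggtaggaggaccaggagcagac

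The patterns, searched on both strands and allowed to overlap one another, were CAAAGTCCA (HNF4A), TGTTTAC (FOXA), TTGCNNAA (C/EBP), TTCCNGGAA (STAT), TGANTCA (AP-1), ACANNNTGT (glucocorticoid receptor), GTTAATNAT (HNF1), GGGNNNNCC (NF-kB), AGNGGGCNC (CTCF), GTTCGANTC (the B box of transfer RNA genes), AGGTCA (nuclear receptors) and TTATGNAA (D-box). The HNF4A pattern, for a receptor that directs hepatocyte genes, was in 2 of the 18 member windows, Smim13 and Adam12, and in 0.479% of all 32544 windows of that length. The C/EBP pattern, for factors that act in the acute phase response, was in 6 of 18 and in 10.8% of all windows. AP-1 was in 4 of 18 (7.79% of all), the nuclear receptor pattern in 4 of 18 (16.2%), NF-kB in 5 of 18 (43.99%) and STAT in 1 of 18 (1.16%). The other 6 patterns were in none of the 18. Median GC content was 46.5% in the member windows and 53% in all windows. With 18 windows these shares are a description only.

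The printed regions moved in different directions. The Slc6a13 region, which spans the start of this amino acid transporter gene, fell in C26 cachexia by 0.61 ± 0.12 (log2 change ± SE; limma adjusted p = 0.00027) and in 8025 cachexia by 0.56 ± 0.13 (adjusted p = 0.0022). The Smim13 region fell by 0.33 ± 0.11 (adjusted p = 0.035) and by 0.66 ± 0.12 (adjusted p = 8.1e-05). Its window holds an HNF4A match, as does that of Adam12, which is not printed. The Adam12 region had 0.12 ± 0.12 and −0.15 ± 0.12, neither past the threshold (adjusted p = 0.56 and 0.50). The Atp5g3 region fell by 0.60 ± 0.19 (adjusted p = 0.024) and by 0.80 ± 0.20 (adjusted p = 0.005). The Arhgef26 region rose in C26 cachexia by 0.82 ± 0.22 (adjusted p = 0.0069), with a value of 0.59 ± 0.23 in 8025 cachexia that did not pass (adjusted p = 0.095). The Cers6 region, near a ceramide synthase gene, had values of 0.01 ± 0.09 and −0.12 ± 0.10, neither past the threshold (adjusted p = 0.96 and 0.50).

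Libraries held 11344500 to 23754000 tags, except NC26 tumor replicate 1 with 3474740, and the regions took 37.3% to 62.9% of them. Libraries of 1 group had Spearman correlations of 0.836 to 0.944 across the tested regions. Promoters of 22 of 24 hepatocyte identity genes held an open region, with a median level of 132.8 in PBS mice. Open promoters were found for 1 of 10 macrophage, 3 of 10 endothelial, 4 of 10 stellate, 4 of 8 cholangiocyte, 2 of 8 neutrophil and 0 of 10 lymphocyte markers, at median levels of 2.83 to 24.8 where there were any. The summed level of the 2 neutrophil markers was 28.3 to 48.1 in C26 PBS and 52.8 to 57.7 in C26 cachexia, and 38.3 to 42.4 in 8025 PBS and 46.7 to 73.6 in 8025 cachexia, so it moved with cachexia in both cohorts. It was 49.5 to 63.1 in C26 pre-cachexia, above C26 PBS as well. The 4 cholangiocyte markers summed to 67.7 to 105.6 in C26 PBS and 107.2 to 116.9 in C26 cachexia, with overlap in the 8025 groups. The 4 stellate markers summed to 77.6 to 100.3 in 8025 PBS and 53.7 to 75.9 in 8025 cachexia, with overlap in the C26 groups. The part of these markers in the results below was not tested. In a pool of nuclei, fewer open cells and less opening per cell cannot be told apart.

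Levels are tags in the 400 bp of a region per 10000000 tags of the library. The members were spread thinly over the genome, with 1848 nearest genes for 2290 regions. Their median distance to the nearest transcription start was 23.3 kb, against 15.1 kb for all regions, and 13.6% lay beyond 100 kb (10.5% of all). Within introns the median distance was 18.5 kb for the members and 17.7 kb for all regions, and between genes it was 31.8 kb and 28.4 kb. Only 37 members lay within 1 kb of a start. Chromosome 2 held 9.74% of the members and 7.44% of all regions, and chromosome 4 held 9.13% and 6.66%.

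The 8 annotated families were MIRb (501 regions), MIR (425), L2a (309), L2b (267), MIRc (240), L2 with no letter (209), MIR3 (204) and L2c (135). Their median level in PBS mice ran from 7.88 for L2 with no letter to 10.8 for MIRc. The median over all members was 9.38, beside 9.44 for intron regions and 8.78 for intergenic regions on no repeat. Younger repeats were lower, at 6.94 for rodent SINEs, 6.46 for LINE-1 and 7.43 for LTR elements, and promoters were at 45.3. DNA transposon regions, at 8.34, were also below the members. The authors called a peak in all 35 libraries at 348 members (15.2%, against 17.1% of all regions) and in a single library at 478 (20.9%, against 21.6%). Between genes the regions that were peaks in all 35 libraries made up 18.4% of the members and 13.8% of all regions.

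The members took 1 tag in about every 100 of those in regions in every mouse. L2 and MIR together held 0.992% ± 0.0255 (SD, n = 4) of the region tags in C26 PBS, 0.991% ± 0.0116 (n = 4) in C26 pre-cachexia and 0.974% ± 0.00518 (n = 4) in C26 cachexia. In the 8025 cohort the share was 0.992% ± 0.0168 (n = 3) in PBS and 1.0298% ± 0.0426 (n = 4) in cachexia. It was 0.989% ± 0.00255 and 0.984% ± 0.0218 in NC26 PBS and tumor, and 0.974% ± 0.0371 and 1.01% ± 0.0515 in MC38 PBS and tumor (n = 4 each). For L2 and MIR together the ranges over mice of each tumor group and its PBS group overlapped. For single families they overlapped in 37 of 40 pairs of a tumor group with its PBS group. In the other 3 pairs the L2b share was 0.119% to 0.125% in C26 cachexia and 0.126% to 0.131% in C26 PBS, the MIRc share was 0.123% to 0.126% in C26 pre-cachexia and 0.113% to 0.122% in C26 PBS, and the share of the MIR family proper was 0.195% to 0.212% in 8025 cachexia and 0.184% to 0.194% in 8025 PBS. Counted only over regions that overlap no neighbour, L2 and MIR together held 1.18% to 1.27% in 8025 cachexia and 1.14% to 1.17% in 8025 PBS, also without overlap. These differences were not tested.

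**Figure D1:**
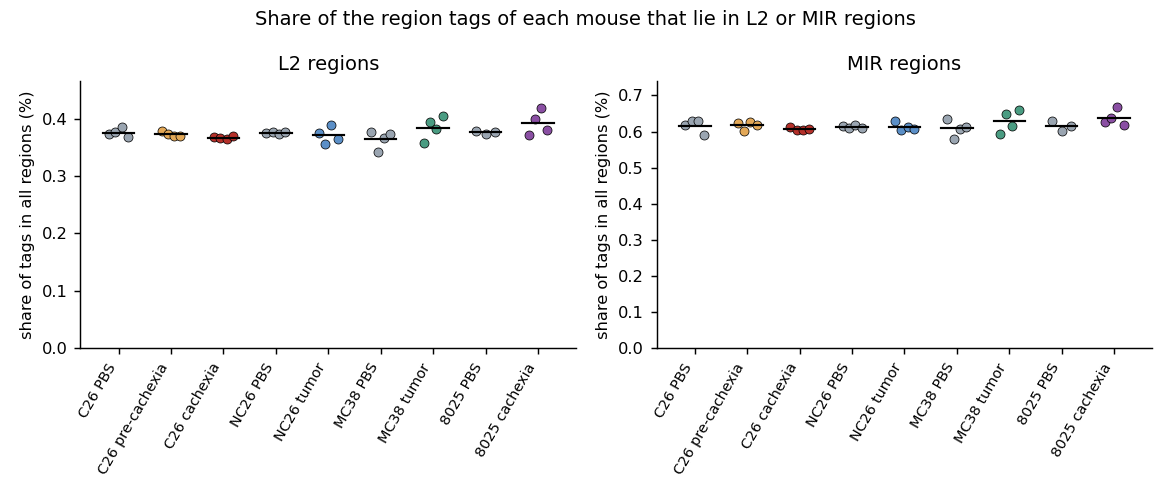
Share of the tags in all regions that lay in L2 regions (left) or MIR regions (right), in percent, for each of the 35 mice (points) with the group mean (line). Every mouse lies between 0.343% and 0.419% for L2 and between 0.581% and 0.668% for MIR.

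In C26 cachexia single members moved in both directions while the median member did not shift. Of 2281 members with enough reads to test (9 were removed), 186 rose and 215 fell, together 17.6%, beside 14% of all tested regions (6.91% higher and 7.13% lower). The median log2 change was −0.03 over the members and −0.01 over all regions. L2 had 74 rises and 97 falls among 916 tested regions, and MIR 112 rises and 118 falls among 1365. By family the share that changed ran from 15.7% for L2c and 15.8% for MIRb to 20.4% for L2a. Regions on no repeat changed in 16.4% of cases between genes and 14.3% in introns. LINE-1 regions changed in 18.7%, DNA transposon regions in 16.8%, rodent SINEs in 12.4% and promoters in 10.7%. The shares follow how widely a region was open: 7.04% of members that were a peak in 1 library changed (all regions 6.41%), 20.01% of those in 2 to 34 libraries (15.4%) and 21.6% of those in all 35 (18.8%). These shares were not tested against each other. Scaled by library totals alone, 171 members rose and 138 fell, with 17601 calls over all regions against 24885 in the main fit. With each library of the comparison left out in turn, 319 to 375 members passed, and 19035 to 22304 of all regions.

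**Figure D2:**
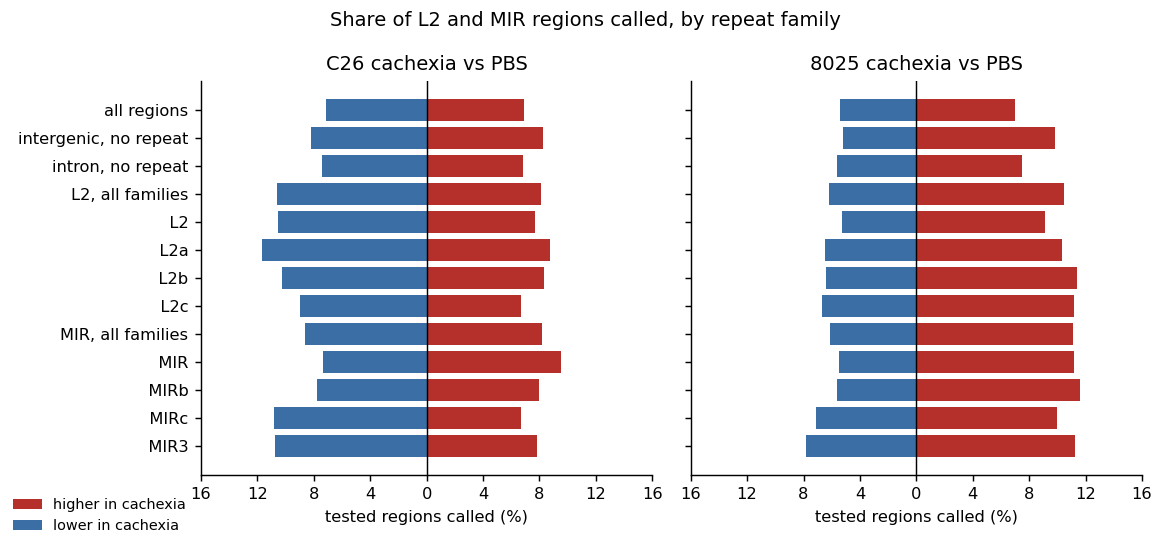
Percent of tested regions called higher (red) or lower (blue) than PBS at an adjusted p under 0.05 in C26 cachexia (left) and 8025 cachexia (right), for all regions, regions on no repeat, and L2 and MIR with their families. L2a reaches 20.4% in C26 cachexia, and rises outnumber falls in every family in 8025 cachexia.

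The regions named for the size of their change stand at or above the median level of all regions, since changes of the lowest regions rest on few reads. Regions named further on from gene lists, as calls in NC26 mice or for a strain difference had no such limit, and those of Fkbp5, Il1r1, Ghr, Slco1a1, Cyp2b10, Cux2, Pithd1, Clip4 and Srp54a lie below it. Below that level changes could also be larger: a MIR in G530011O06Rik, named after its values were seen, went from 0.943 ± 1.09 (SD, n = 4) to 17.6 ± 5.40 (SD, n = 4) in C26 cachexia, a log2 change of 3.47. Among regions at or above that level, the MIR region with the largest rise lay 7.08 kb before Lemd3, an inner nuclear membrane protein gene (MIRb, chr10:120986206-120986606, mm10). Its levels were 2.35, 6.69, 3.71 and 2.9 in C26 PBS and 31.7, 25.3, 32.1 and 21.3 in C26 cachexia. The log2 change was 2.57 ± 0.28 (adjusted p = 4e-09), a 5.95-fold rise on the log2(value + 1) scale, which understates changes of low regions. An intronic MIRb 85.0 kb into Bmper, which encodes a regulator of bone morphogenetic proteins (chr9:23307832-23308232), went from 3.84, 8.92, 8.36 and 10.9 to 43, 38.8, 46 and 62.4. This was a log2 change of 2.44 ± 0.31 (adjusted p = 1.5e-07). A MIR in Oxnad1 (chr14:32093687-32094087) went from 9.18 to 20.1 in PBS to 32.6 to 88.8 in cachexia, a log2 change of 1.86 ± 0.28 (adjusted p = 6.8e-06). Regions named for the size of their change against PBS had to have groups without overlap. The separation of these groups is therefore a condition of the choice, here and below.

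Among L2 regions of that level the largest rise lay 16.2 kb before Csrnp1, a nuclear protein gene responsive to axin (chr9:120000712-120001112). Its levels were 6.83, 5.74, 6.19 and 8.69 in PBS and 26.9, 32, 25.6 and 35.6 in cachexia, a log2 change of 1.94 ± 0.29 (adjusted p = 4.8e-06). An L2a 34.6 kb before Lepr, the leptin receptor gene (chr4:101682570-101682970), went from 4.33 to 11.2 in PBS to 19.8 to 32.2 in cachexia. Its log2 change was 1.81 ± 0.41 (adjusted p = 0.0022). The other L2 rises named by rule were at Tec, a cytoplasmic tyrosine kinase (1.60), Mybphl, a myosin binding protein (1.59), and Papss1, which makes the sulfate donor of the cell (1.48). The Papss1 region was already one of the more open, at 32.6 to 74.6 in PBS, and rose to a narrow band of 144 to 154.

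The deepest falls of all tested members were at a pair of L2b copies far from any start. The L2b in an intron of Grik1, a glutamate receptor subunit (chr16:88252265-88252665), went from 27.1, 45.6, 42.7 and 47.1 in PBS to 13.5, 3.95, 3.24 and 2.06 in C26 cachexia. The log2 change was −2.95 ± 0.27 (adjusted p = 2.2e-10). The L2b 43.2 kb before Pax7, a muscle stem cell factor (chr4:139875972-139876372), went from 31.1 to 42.1 to 0.4 to 9.24, a log2 change of −2.89 ± 0.41 (adjusted p = 1.1e-05). Neither nearest gene is known for a role in hepatocytes, and the nearest gene need not be the one a distant region acts on.

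An L2b 56.2 kb into Grb14, an adapter that restrains the insulin receptor (chr2:64966364-64966764), had levels of 26.5, 37, 45.8 and 38.8 in PBS and 7.66, 8.3, 9.72 and 10.3 in cachexia. Its log2 change was −1.97 ± 0.24 (adjusted p = 9.4e-08). Other L2 falls named by rule were in Ccdc129 (−1.96) and before Bdh1, a ketone body enzyme (−1.83). The MIR falls named by rule lay near Bdnf, a neurotrophin (−2.07 ± 0.25), Lrrc69 (−2.03 ± 0.26), Fam102a (−1.81 ± 0.22), Pja1 (−1.59 ± 0.30) and Myo6, a myosin motor (−1.43 ± 0.23). The Bdnf region (chr2:109748432-109748832) had 23.2 to 39.5 in PBS and 2.74 to 11.3 in cachexia.

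**Figure D3:**
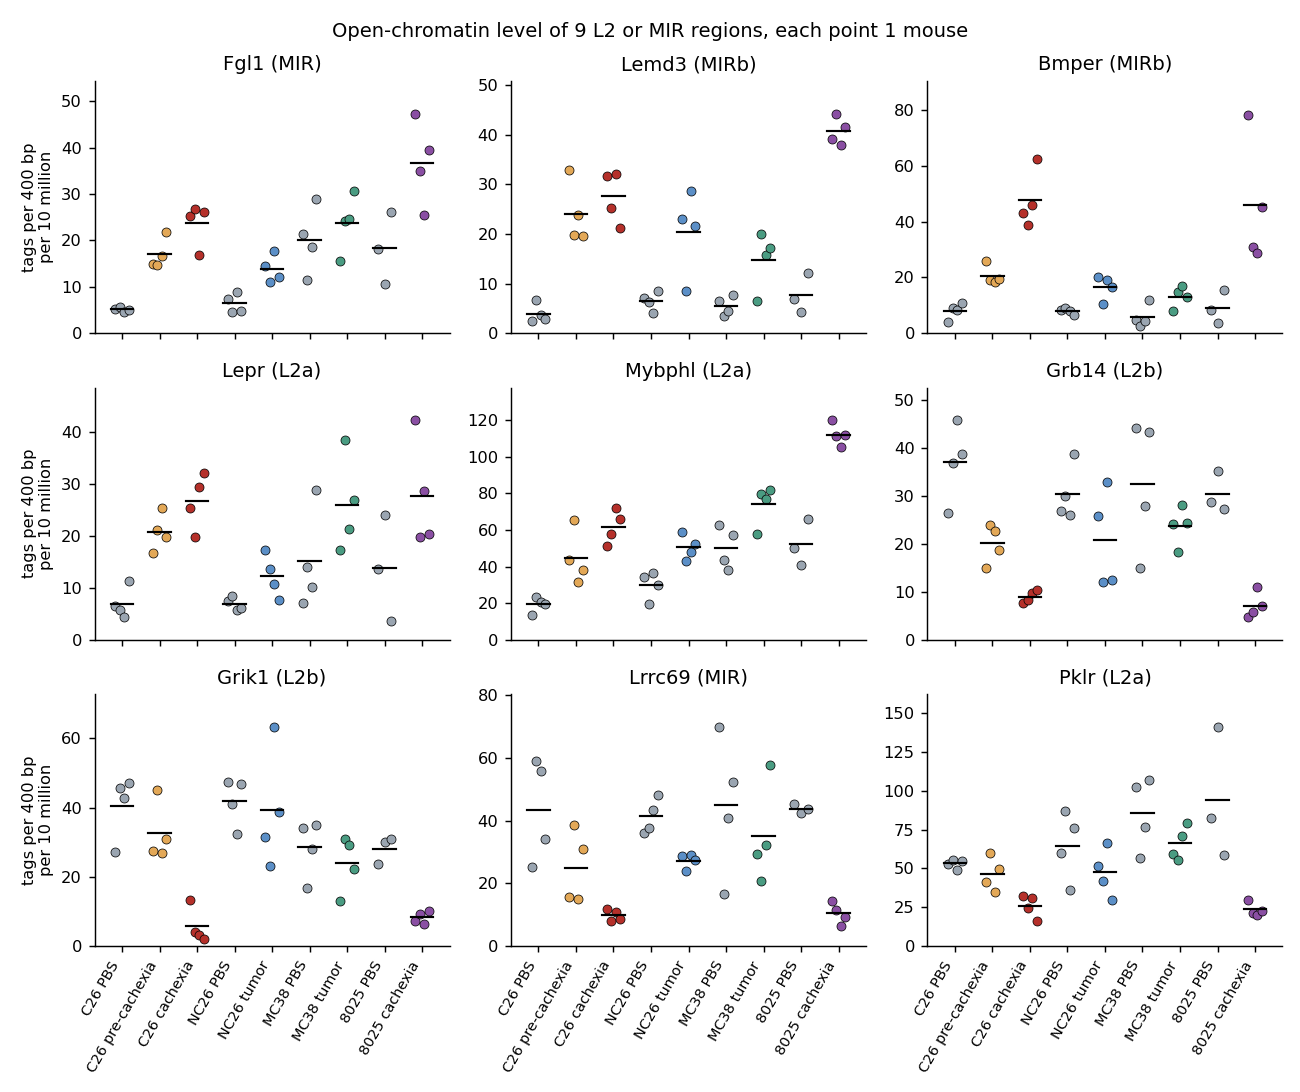
Level of 9 L2 or MIR regions, in tags per 400 bp per 10000000 tags, for each mouse (points, grey for PBS) with the group mean (line). C26 cachexia and C26 PBS mice do not overlap in any of the 9 panels, which the naming rule required at all but Pklr. At Grik1 and Pklr the NC26 and MC38 tumor mice overlap their PBS mice.

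In 8025 cachexia more members rose than fell. Of 2281 tested members 248 rose and 141 fell, together 17.1%, beside 12.4% of all regions (6.99% higher and 5.38% lower). Rises made up 63.8% of the members called and 56.5% of all regions called, and the median log2 change was 0.06 over the members and −0.01 over all regions. L2 had 96 rises and 57 falls, and MIR 152 and 84. Intergenic regions on no repeat had 65.4% rises among their calls, close to the members, and intron regions on no repeat 56.9%. Among members that were a peak in all 35 libraries rises and falls were even (34 and 32), while all regions of that kind had 1595 rises and 2887 falls, so rises were 51.5% of the members called and 35.6% of all called. These sets differ in place: 11446 of the 30368 regions lay within 1 kb of a start, against 5 of the 348 members. The part of this in the shares was not tested. Scaled by library totals alone, 229 rose and 82 fell, with 16486 calls over all regions against 21923 in the main fit. Without 8025 PBS replicate 2, 242 members passed, 154 higher and 88 lower, and 12947 of all regions passed.

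The MIR rises named by rule in 8025 were those at Prune1, described below, at Lemd3, with levels of 6.86, 4.23 and 12.1 in PBS and 39, 44.1, 37.9 and 41.6 in cachexia (2.30 ± 0.30, adjusted p = 3.8e-07), and at Bmper (2.23 ± 0.33, adjusted p = 5.5e-06). The L2 rises named by rule were at other genes than in C26. An L2b 2.15 kb into Syne2, a nuclear envelope protein (chr12:75820266-75820666), went from 9.97, 6.7 and 25.5 to 43.5, 53.8, 58.5 and 55.3, a log2 change of 1.98 ± 0.33 (adjusted p = 4.1e-05). An L2a in Chd9, a chromatin remodeler (chr8:90872204-90872604), went from 6.54, 10.9 and 9.77 to 34, 46.8, 37.7 and 34.9 (1.93 ± 0.26, adjusted p = 1.1e-06). In C26 cachexia the Syne2 and Chd9 regions had log2 changes of 0.43 and 0.58 that did not pass (adjusted p = 0.41 and 0.11). The difference between the cohorts was not tested. The Chd9 region already differed among PBS mice, at 12.3 to 31.2 in BALB/c and 6.54 to 10.9 in C57BL/6N. The L2a near Glt28d2 rose in both cachexia comparisons (1.79 and 1.31).

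The deepest 8025 fall among MIR copies was a MIR3 60.2 kb before Atp5g3 (chr2:73971350-73971750), a different region from the L2c printed above. Its levels were 77.6, 80.4 and 54.3 in PBS and 17.1, 9.21, 3.58 and 4.36 in cachexia, a log2 change of −3.15 ± 0.55 (adjusted p = 0.00026). It was a peak in only 2 libraries and overlaps a neighbouring region, so part of its tags belong to both. The L2a 2.36 kb before Pklr, the liver pyruvate kinase of glycolysis (chr3:89133579-89133979), went from 82.6, 141 and 58.4 to 29.9, 21.6, 20.2 and 22.7, a log2 change of −1.92 ± 0.26 (adjusted p = 4e-06). In C26 cachexia it fell by 1.11 ± 0.24 (adjusted p = 0.0015), from 49.2 to 55.5 in PBS to 16.1 to 32.5. The Grb14, Pax7, Fam102a and Lrrc69 regions fell as they did in C26, at −2.04, −1.92, −2.10 and −2.06.

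The cachexia comparisons of C26 and 8025 share no mice and no strain, so their lists can be set side by side. Both called 193 members, which is 48.1% of the 401 called in C26 and 49.6% of the 389 called in 8025. Over all tested regions both called 10331, which is 41.5% of the 24885 called in C26 and 47.1% of the 21923 called in 8025. Of the 193 members 109 rose in both, 83 fell in both and 1 moved in opposite directions. Of the 10331 regions 5612 rose in both, 4694 fell in both and 25 moved in opposite directions. The 1 member that did so was a MIRc near Gm7538, at −0.76 in C26 and 0.84 in 8025, named here after its values were seen. By class the shared calls were 79 for L2 and 114 for MIR. Across the 2281 regions the log2 changes had a Pearson correlation of 0.64, beside 0.62 across all tested regions, given as a description because regions of 1 library are not independent.

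**Figure D4:**
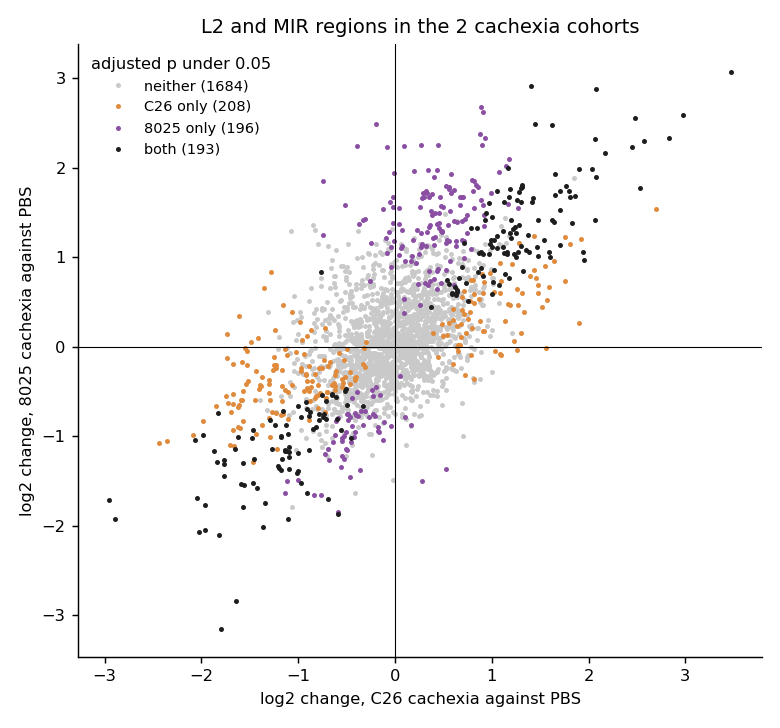
Log2 change against PBS of each tested L2 or MIR region in C26 cachexia (horizontal) and 8025 cachexia (vertical), coloured by the comparison in which its adjusted p was under 0.05. Of the 193 regions called in both, all but 1 have the same sign on both axes.

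Before weight loss, in C26 pre-cachexia, fewer members passed and nearly all were rises. Of 2281 tested, 35 rose and 6 fell, together 1.80%, beside 1.27% of all regions (0.97% higher and 0.296% lower). Scaled by library totals alone, 35 rose and 1 fell, with 1814 calls over all regions. The count rests on few libraries: 18 passed without pre-cachexia replicate 1, 20 without PBS replicate 1 and 25 without PBS replicate 3. Calls over all regions were then 859, 1003 and 1294, against 2245 in the main fit. This comparison uses the same PBS mice as C26 cachexia, so values are given side by side only. The Lemd3 region stood at 33, 19.8, 23.8 and 19.6, a log2 change of 2.32 ± 0.28 (adjusted p = 1.3e-06) beside 2.57 in cachexia. The MIR 274.4 kb from Adgrl2, an adhesion receptor gene (chr3:148680049-148680449), was highest at this stage: 5.12, 8.29, 4.64 and 10.5 in PBS, 16.4, 31.7, 28.1 and 30.6 in pre-cachexia and 14.8, 11.9, 14.3 and 15.8 in cachexia. Its log2 changes were 1.69 ± 0.23 (adjusted p = 2e-05) and 0.91 (adjusted p = 0.0052).

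The deepest falls of C26 cachexia had smaller values at the earlier stage. Grik1 had a log2 change of −0.41 (adjusted p = 0.61) in pre-cachexia, with mice at 27 to 45.1 beside 27.1 to 47.1 in PBS. Pax7 had −0.70 (adjusted p = 0.54). Grb14 was between the stages at 15 to 24, a fall of 0.95 ± 0.24 that passed (adjusted p = 0.035), but not without any of 6 of the 8 libraries left out singly (adjusted p = 0.053 to 0.17), nor scaled by library totals alone (0.15). The L2c in Angpt4 fell by 0.51 ± 0.12 (adjusted p = 0.012), and not when either PBS replicate 1 or 3 was left out (adjusted p = 0.062 and 0.075), with library totals alone (0.37) or with no library series term (0.061).

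Tumors that left weight stable changed few members. In NC26 mice 6 rose and 0 fell (0.263%, beside 0.186% of all regions, 0.146% higher and 0.0401% lower). At an unadjusted p under 0.05 were 245 members, beside 10.4% of all regions, and edgeR called 4 higher and DESeq2 7 higher, with 0 lower in each. The 6 were Prune1 and Pithd1 (MIRc), Lemd3 and Bex2 (MIRb), and Adamts15 and Amot (L2a), and 4 of them also rose in C26 cachexia. The count was 1 without tumor replicate 1, the shallow library, 17 without tumor replicate 2 (13 higher and 4 lower), 5 without tumor replicate 3 (4 higher and 1 lower), 2 without tumor replicate 4, and 3, 2 and 3 without PBS replicates 1, 2 and 3. Calls over all regions were 80 without tumor replicate 1 and 1187 without tumor replicate 2, against 330 in the main fit. In MC38 mice 1 member rose and 0 fell (0.0438%, beside 0.0186% of all regions, 0.0181% higher and 0.000564% lower). At an unadjusted p under 0.05 were 156 members, beside 6.32% of all regions, with 2 higher by edgeR and 8 by DESeq2, and 3 by limma without tumor replicate 1.

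The member called in MC38 was an intronic MIRc 13.9 kb into Prune1, a phosphatase gene (chr3:95267959-95268359), and it was called in all 5 comparisons of tumor with PBS mice. Levels in PBS mice were 10, 15.3, 12.1 and 10.1 (C26), 9.13, 8.4, 12.2 and 17 (NC26), 37, 7.49, 13.6 and 17.2 (MC38), and 22.8, 16.6 and 34.7 (8025). Tumor mice had 28.4 to 46.6 (C26 pre-cachexia), 52.5 to 62.5 (C26 cachexia), 21.8 to 70.7 (NC26), 38.4 to 84.1 (MC38) and 95.7 to 149 (8025 cachexia). In each cohort every tumor mouse stood above every PBS mouse, which the naming rule required in every comparison but that of C26 pre-cachexia. The log2 changes were 1.49, 2.17, 1.44, 1.82 and 2.17 in that order (adjusted p = 0.0003, 1.4e-08, 0.0019, 0.00036 and 1.5e-07). A peak was called there in 1 library, the region overlaps a neighbour, and the MC38 call was lost when only that cohort was fitted (adjusted p = 0.077). Lemd3 rose in NC26 by 1.34 (adjusted p = 0.017), which did not pass without tumor replicate 1 or 3 or PBS replicate 3 (adjusted p = 0.055 to 0.13) or when only that cohort was fitted (0.16), and had 1.17 in MC38 (adjusted p = 0.14).

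The cachexia effect was set against the weight-stable effect of the same strain as a difference of differences. C26 against NC26 gave 35 members with a more positive and 41 with a more negative effect (3.33%, beside 2.14% of all regions, 1.04% and 1.1%), and 8025 against MC38 gave 27 and 38 (2.85%, beside 1.7%, 0.922% and 0.779%). For C26 the count was 41 to 46 without NC26 PBS replicate 1 or C26 cachexia replicate 3 or 4. Calls over all regions were then 2154 to 2565, against 3793 in the main fit. For 8025 the count was 23 to 42 without any 1 of 7 libraries. These were 8025 PBS replicates 1 and 2, 8025 cachexia replicates 1 and 3, MC38 tumor replicates 2 and 3, and MC38 PBS replicate 3. Calls over all regions were then 1150 to 2394, against 3015 in the main fit. Grik1 had the difference with the smallest adjusted p among the named C26 regions (−2.67 ± 0.38, adjusted p = 8.6e-05), with Pax7 at −2.93 ± 0.58 (adjusted p = 0.006) and Csrnp1 at 1.90 ± 0.41 (adjusted p = 0.0076). Fam102a had −2.20 ± 0.32 in the 8025 difference (adjusted p = 0.00015) and −1.22 ± 0.31 in the C26 one (adjusted p = 0.025). Grb14 differed in both (−1.65 and −1.22).

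A MIRb 3.83 kb before Lrrc58 (chr16:37864370-37864770) rose in C26 cachexia and differed from NC26, and its level depended on the cohort. PBS mice had 3.84 to 8.29 (C26) and 8.4 to 12.4 (NC26) in BALB/c, against 22.9 to 49.2 (MC38) and 37 to 40.8 (8025) in C57BL/6N. C26 cachexia mice reached 11 to 18.2, a log2 change of 1.23 (adjusted p = 0.00046), and 8025 cachexia mice had 36.6 to 47.1, a change of 0.06 (adjusted p = 0.93). The difference from NC26 was 1.66 ± 0.36 (adjusted p = 0.0066). The Adgrl2 region had the same cohort pattern, at 4.64 to 17.9 in BALB/c PBS mice and 37 to 80.5 in C57BL/6N PBS mice.

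Gene lists for liver functions held few members each, so they are given by count. All 3 members near acute phase genes rose in both cachexia comparisons, with a median log2 change of 1.70 in C26 and 1.04 in 8025, and 2 of 3 rose in pre-cachexia. Of all 375 regions near these genes, 193 rose and 5 fell in C26 cachexia, with a median of 0.74. In 8025 cachexia 166 rose and 6 fell, with a median of 0.63, and in pre-cachexia 52 rose and 1 fell, with a median of 0.29. The level of the 1 macrophage marker with an open promoter was 1.27 to 4.35 in C26 PBS and 2.59 to 8.91 in C26 cachexia, and its part and that of the neutrophil markers in these rises were not tested. Of the 3, 2 were MIR copies at Fgl1, a fibrinogen-like protein secreted by hepatocytes, and 1 was in an intron near Hpx, hemopexin. The intronic Fgl1 region (chr8:41203221-41203621) had 5.12, 5.74, 4.64 and 5.07 in C26 PBS, 15, 14.8, 16.8 and 21.9 in pre-cachexia and 25.4, 26.9, 16.9 and 26.1 in cachexia. Its log2 changes were 1.46 ± 0.24 (adjusted p = 0.00038) and 1.95 ± 0.24 (adjusted p = 1e-07). In 8025 it rose by 0.97 ± 0.26 (adjusted p = 0.0093), from 10.6 to 26.2 to 25.5 to 47.3 with ranges that overlap, and not without PBS replicate 2 (adjusted p = 0.17).

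Of 4 members near genes of fat synthesis and glycolysis, 1 fell in C26 cachexia (Pklr) and 2 in 8025 cachexia (Pklr and Me1, malic enzyme, at −1.01 ± 0.20), and none rose, beside 31 rises and 64 falls among all 518 regions of the list in C26 and 26 and 114 in 8025. Of 21 members near gluconeogenesis and glucocorticoid genes, 2 rose and 1 fell in C26 cachexia and 1 rose and 2 fell in 8025 cachexia, beside 121 rises and 37 falls among all 776 regions of the list in C26 and 59 and 43 in 8025. The largest was an L2 in an intron of Fkbp5, a glucocorticoid-induced chaperone (chr17:28463826-28464226), at 4.48, 3.19, 2.79 and 4.35 in PBS and 23.5, 21.4, 17.2 and 13.7 in cachexia. It rose by 2.03 ± 0.39 (adjusted p = 0.00016), and by 1.98 ± 0.42 in 8025 (adjusted p = 0.00076), with pre-cachexia mice at 2.12 to 5.63 (0.08, adjusted p = 0.97). Got1, an aspartate aminotransferase gene, rose in C26 (1.19), and Klf9, a glucocorticoid-responsive factor, fell in both (−0.52 and −0.49). Fbp1, a gluconeogenic enzyme, fell in 8025 (−0.95, adjusted p = 0.00049) and had −0.16 in C26 (adjusted p = 0.63), and the difference between the cohorts was not tested.

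Among 5 members near clock genes, the L2a in Arntl, the core clock activator, fell in C26 cachexia (−0.80 ± 0.20, adjusted p = 0.0046). It had −0.53 ± 0.22 in 8025 cachexia, which did not pass (adjusted p = 0.10). All 313 regions of the list had 40 rises and 30 falls in C26 and 21 and 50 in 8025. The Arntl levels were 35.9 to 66 in PBS and 22.6 to 36.7 in cachexia, so the groups overlapped slightly. Among 7 members near growth hormone and sex-biased genes 1 rose and 1 fell in each cachexia comparison, while the 480 regions of the list had 24 rises and 106 falls in C26 and 14 and 87 in 8025. An L2 in Ghr, the growth hormone receptor, fell from 7.47 to 12.8 to 0.69 to 4.35 in C26 (−1.87 ± 0.35, adjusted p = 0.00013). It fell by 1.16 ± 0.38 in 8025 (adjusted p = 0.034), and not without PBS replicate 1 or 2 or cachexia replicate 1 or 3 (adjusted p = 0.085 to 0.16), nor with library totals alone (0.053). In the same list Cux2, a female-biased factor, rose in C26 (1.31 ± 0.39), from a mean of 2.52 to 7.84, and a MIR3 146 kb before Igf1 rose in 8025 (0.38 ± 0.13).

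For cytokine signaling 1 of 10 members rose in each cachexia comparison, an L2b in Il1r1, the interleukin-1 receptor gene (1.12 ± 0.32 in C26 and 1.30 ± 0.35 in 8025). All 595 regions of the list had 114 rises and 18 falls in C26 and 101 and 24 in 8025. Each Il1r1 call was lost without PBS replicate 4 of its cohort (adjusted p = 0.050 and 0.065). The MIR3 before Rxra, the partner of many nuclear receptors, was the 1 of 13 hepatocyte identity members that rose (0.64 and 0.63), and each call was lost without certain libraries (adjusted p = 0.066 without C26 PBS replicate 4, and 0.097 to 0.12 without 8025 PBS replicate 1 or 2 or 8025 cachexia replicate 1). The 776 regions of that list had 66 rises and 53 falls in C26 and 29 and 71 in 8025, where the 13 members had a median of −0.24. Near cholesterol genes 1 of 8 rose in both, an L2b assigned to Cyp51 (0.71 and 1.16), the former not without cachexia replicate 3 (adjusted p = 0.11), beside 36 rises and 31 falls among 408 regions in C26 and 24 and 41 in 8025. Near Xbp1, a factor of the unfolded protein response, a MIRc rose in C26 pre-cachexia (0.50 ± 0.13, adjusted p = 0.036) and C26 cachexia (0.56 ± 0.13, adjusted p = 0.0017). In 8025 cachexia it had 0.27 ± 0.14, which did not pass (adjusted p = 0.23). It was 1 of 4 members near stress response genes. All 306 regions of that list had 23 rises and 27 falls in C26 cachexia and 18 and 17 in 8025 cachexia. In pre-cachexia 9 rose and 2 fell. None of 3 members near urea cycle genes passed in either cachexia comparison by limma, where 78 of 562 regions of that list rose and 27 fell in C26, and 35 rose and 29 fell in 8025.

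In fatty acid oxidation 1 of 6 rose in C26 (Cd36, a fatty acid transporter, 0.48) and 1 of 6 fell in 8025 (Ppara, its regulator, −0.75), while the 319 regions of the list had 26 rises and 56 falls in C26 and 14 and 49 in 8025. In bile acid genes 1 of 7 fell in each, Abcb4 (−0.30) in C26 and Slco1a1 (−1.66) in 8025, beside 17 rises and 46 falls among 441 regions in C26 and 10 and 43 in 8025. In xenobiotic genes 1 of 5 rose in C26 (Cyp2b10, 1.48) and none passed in 8025, while the 366 regions of the list had 21 rises and 73 falls in C26 and 13 and 75 in 8025. All 5 of these calls were lost when certain single libraries were left out: Cd36 without PBS replicate 3 or 4 or cachexia replicate 1 or 4, Ppara without any 1 of 6 of the 7 libraries, Slco1a1 without PBS replicate 4, Cyp2b10 without any 1 of 6 of the 8, and Abcb4 without any 1 of 7 of the 8 (adjusted p up to 0.19). With library totals alone Abcb4 (adjusted p = 0.44), Ppara (0.13) and Cd36 (0.066) were lost too. Abcb4 and Ppara were also lost with RLE scaling, with no filter and with the replicate block (adjusted p = 0.050 to 0.083), and Abcb4 with no library series term and by DESeq2 (0.052 and 0.050). The L2a in Stab2, a scavenger receptor gene of sinusoidal endothelium, was open in all 35 libraries and rose in C26 cachexia from 24.6 to 48.4 to 83.2 to 101 (1.32 ± 0.20, adjusted p = 5.1e-06). In 8025 it rose by 0.84 ± 0.21 (adjusted p = 0.0054), and not without PBS replicate 2 (adjusted p = 0.062). The summed promoter level of the 3 endothelial markers with an open promoter was 28.98 to 41.8 in C26 PBS and 29.8 to 44.1 in C26 cachexia, and 25.9 to 33.5 and 22.5 to 37.2 in the 8025 groups. The ranges overlapped in each cohort. These are 3 of 10 markers, at a median level of 7.72, and the part of endothelial nuclei in the Stab2 rise was not tested.

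**Figure D5:**
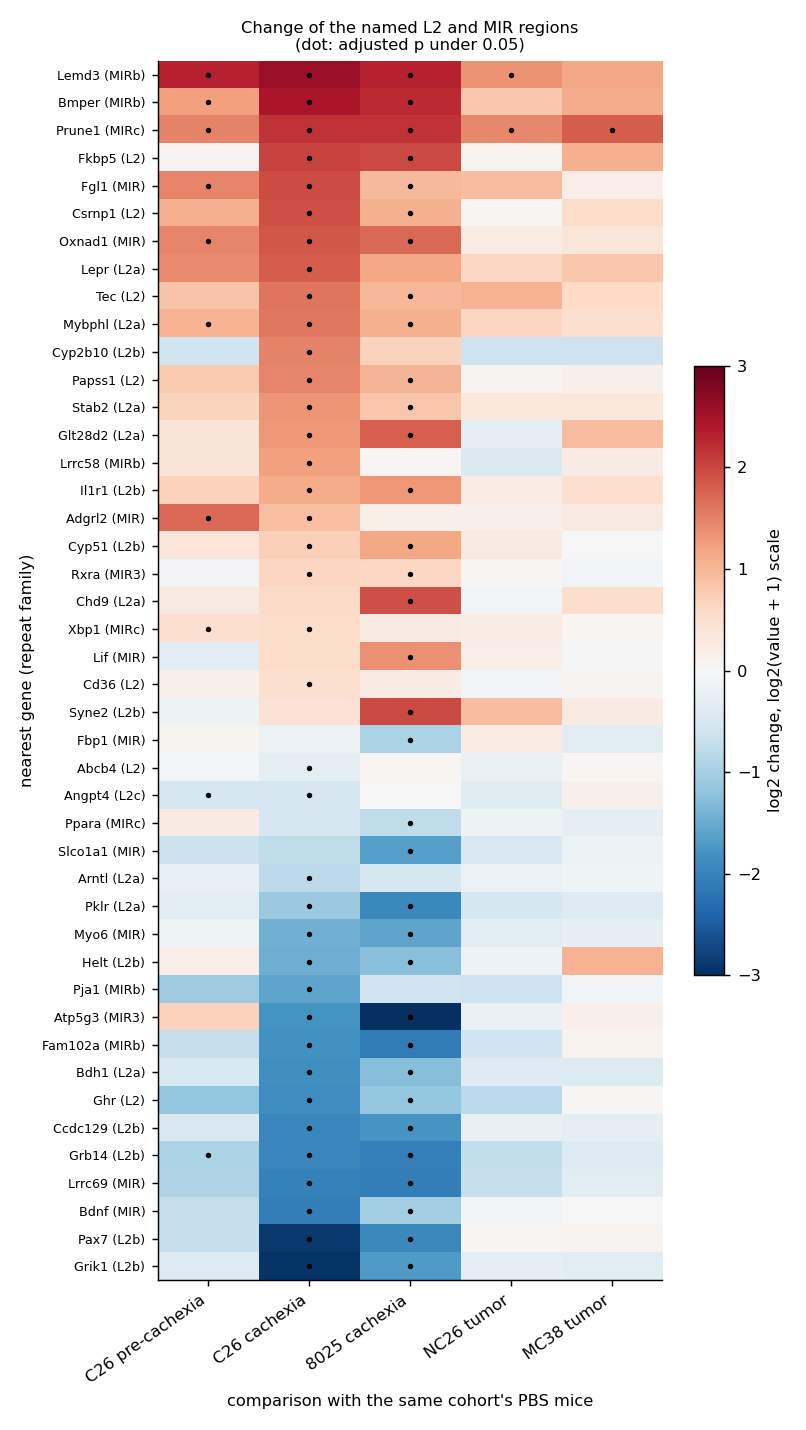
Log2 change against PBS of the L2 and MIR regions named by rule and reported here, ordered by C26 cachexia, in 5 comparisons, with a dot where the adjusted p was under 0.05. Most regions strongly coloured in C26 cachexia have the same colour in 8025 cachexia and are pale in NC26 and MC38 tumor mice, with Prune1 dotted in all 5 columns. Most rows were named for their change in cachexia or its difference from the weight-stable effect, so this contrast follows in part from the choice.

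The most open members mostly did not pass in either cachexia comparison. By mean over the PBS groups the highest L2 regions were an L2b in Synpo (chr18:60606029-60606429, 289.8), an L2b near Tlr9 (192.5) and the Cers6 L2a (163.4), and the highest MIR regions were MIRc copies near Ppp1r3b, a glycogen targeting subunit (233.8), and in Rhobtb1 (200.8), and a MIR3 near Kif14 (186.9). Synpo had log2 changes of 0.14 ± 0.07 (adjusted p = 0.23) and 0.08 ± 0.08 (adjusted p = 0.60). Of the 6, Kif14 fell in C26 cachexia (−0.40 ± 0.12, adjusted p = 0.016). The Tlr9 region varied from 19.4 to 348 between mice, was a peak in 2 libraries and overlaps a neighbour, and its fall of 1.78 ± 0.61 in 8025 did not pass (adjusted p = 0.057).

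Among the PBS mice, some L2 and MIR regions differed between the strains without overlap, a comparison added after the data were seen and given with no test. Strain and cohort cannot be told apart here, and all reads were aligned to mm10, whose part was not tested. All 7 C57BL/6N mice stood above all 8 BALB/c mice at 67 members (2.93%, beside 2.46% of all regions), and below at 48 (2.10%, beside 1.54%), where 4.01% of all regions separated the strains either way. For L2 these were 35 and 20 regions, and for MIR 32 and 28. An L2c near Clip4 had a mean of 66.8 (41.4 to 92.9) in C57BL/6N and 0.404 (0 to 1.27) in BALB/c. An L2b near Srp54a was listed at 0 in all 8 BALB/c mice and had a mean of 13.5 in C57BL/6N. In the other direction, an L2a near Usp38 had 66.7 (42.7 to 89.5) in BALB/c and 1.53 in C57BL/6N, and a MIR3 near Ins1 had 101.8 and 8.17. These examples were chosen after their values were seen.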

How the data were processed

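ATAC-seq libraries of hepatocyte nuclei from 35 mice in 9 groups were used. The authors aligned reads to mm10 and annotated merged regions with BWA 0.7.5a-r405, SAMtools and HOMER, per the submitters' processing notes. How peaks were called is not stated there. The deposited signal is the tags in 400 bp around each region for every 10000000 tags of its library, per the file headers. The values are whole read ends on that scale for 100% of entries (tolerance 0.05), so the count tests could be run as alternatives. The members and lists were chosen with earlier results of these data known.

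Values were scaled by TMM (edgeR 4.0.16), logged as log2(value + 1), and tested with limma 3.58.1 (R 4.3.3; trend and robust) in 1 model over all groups with the library series (2 number ranges in the deposited library names) as a covariate. Low regions were removed (filterByExpr, minimum 10 read ends), which left 177251, and p-values were adjusted by the Benjamini-Hochberg method over these within each of 7 comparisons, with a threshold of 0.05. Alternatives were other scalings, no filter, another pseudocount, edgeR's quasi-likelihood test, DESeq2 1.42.0, only the cohorts compared, no series term, a replicate block and each library left out. The fits were tested on simulated data. Same-numbered libraries had deviations from their group means correlated at −0.155 to 0.077. With 3 or 4 mice in a group this cannot decide whether the numbers pair the mice. The main fit treats them as unpaired.

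Regions were named by rule: passed, at or above the median average log2 value, groups without overlap, 1 region per nearest named gene, 5 largest rises and falls each for L2 and MIR in C26 cachexia, 3 in 8025 cachexia and 2 over both elsewhere. The 3 most open L2 and MIR regions and the called region of lowest adjusted p of each gene list were added; 1 region so named is not reported here. The nearest gene is the authors' assignment by start site.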

Additional observations from a re-analysis of the deposited data

Results flagged for a closer look

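In 136 groups of 4 mice looked at for named regions and 8 for the summed share, 5 held a mouse far from the other 3 by Dixon's criterion, which chance alone meets in about 1 group of 20. In C26 cachexia these were a mouse at 13.46 at Grik1, where the next was 3.95, a mouse at 16.85 at Fgl1, where the next was 25.35, and a mouse at 3.7 at Pja1, where the next was 6.33. An MC38 PBS mouse stood at 19.53 at Helt (next 9.7), and an NC26 PBS mouse at 278.46 at Ppp1r3b (next 220.87).

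The cachexia effect differed from the weight-stable effect at 26 of 57 named regions and differences looked at, by limma's test of the difference. These regions had been named because their cachexia effect or this difference passed, so the count does not describe the members in general. Over all tested regions 2.14% passed for C26 against NC26 and 1.7% for 8025 against MC38. For C26 against NC26 the positive differences in log2 change were 1.9034 at Csrnp1, 0.94301 at Mybphl, 1.3993 at Papss1, 1.6277 at Bmper, 1.6265 at Oxnad1, 1.662 at Lrrc58, 1.9296 at Fkbp5 and 1.0117 at Stab2. The negative ones were −2.6692 at Grik1, −2.933 at Pax7, −1.2193 at Grb14, −1.7313 at Ccdc129, −1.4443 at Bdh1, −1.9934 at Bdnf, −1.3397 at Lrrc69 and −1.2239 at Fam102a. Their adjusted p ran from 8.6e-05 at Grik1 to 0.047 at Grb14 and Fkbp5.

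For 8025 against MC38 the positive differences were 1.7456 at Syne2, 1.4027 at Chd9, 1.4197 at Lif and 1.1365 at Cyp51. The negative ones were −1.6458 at Grb14, −1.5304 at Pklr, −3.2947 at the Atp5g3 MIR3, −2.1985 at Fam102a, −1.7317 at Lrrc69 and −2.2947 at Helt. Of these, Syne2 was lost without any 1 of 8 libraries (adjusted p up to 0.17), Lif without any 1 of 11 (up to 0.16), the Atp5g3 region without 8025 PBS replicate 1 or 2 (0.056 and 0.068), and Helt without 8025 PBS replicate 2 (0.11). Library totals alone lost Syne2 (0.057) and Lif (0.074), the replicate block lost Lif (0.070), and a fit of only the cohorts compared lost Syne2 (0.16) and Helt (0.052).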

How the results depend on the processing

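No named region changed direction in any of the 1211 alternative fits of 69 named regions and comparisons, and 48 of the 69 kept their call in all of them. In percent of tested members called, fitting only the cohorts compared gave 3.72% in C26 pre-cachexia, 0.0539% in NC26 and 0% in MC38. DESeq2 gave 4.78% in pre-cachexia, 0.458% in NC26, 0.551% in MC38 and 4.78% for 8025 against MC38, and edgeR gave 0.0877% in MC38. Over all regions DESeq2 called 4659, 439, 249 and 5969 in that order, against 2245, 330, 33 and 3015 in the main fit. The 1 MC38 call was lost (0%) among members with no overlapping neighbour and among those listed as a peak in at least 2 libraries. Library totals alone gave 1.40% for C26 against NC26 and 1.23% for 8025 against MC38, and moved the median of all regions in NC26 from −0.03 to 0.07. The replicate block gave 1.84% (42 members) for 8025 against MC38 and moved no other count by over 1.5 times. Over the library totals, the share ratio of tumor to PBS was 1.04 in C26 cachexia, 1.08 in pre-cachexia and 1.08 in NC26, and without overlapping regions it was 0.998 in C26 cachexia. With 1 library left out in turn, the percent called ran from 14.0% to 16.4% in C26 cachexia, 0.789% to 2.02% in pre-cachexia, 10.6% to 14.8% in 8025 cachexia, 0.0438% to 0.746% in NC26, 0.0438% to 0.132% in MC38, 1.80% to 3.90% for C26 against NC26 and 1.01% to 2.72% for 8025 against MC38. The share ratio ran from 0.970 to 0.989, 0.987 to 1.01, 1.02 to 1.05, 0.989 to 1.00 and 1.02 to 1.06 in C26 cachexia, pre-cachexia, 8025 cachexia, NC26 and MC38, an alternative chosen after seeing the data. The cause of these shifts was not tested. Regions near the filter hold few read ends, which limits their calls.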
